A study of Mus musculus with 18 samples.

Results

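The genes described here are 10 genes of hepatic gluconeogenesis and glycogen metabolism, *Pck1*, *G6pc*, *Fbp1*, *Pcx*, *Slc37a4*, *Gys2*, *Pygl*, *Ppp1r3b*, *Slc2a2* and *Foxo1*, out of 21887 protein-coding genes of the mouse annotation. They were given as a list of names, with no threshold on a measured value. For each gene, the ChIP-seq peaks that fell within its RefSeq span on build mm10 with 10 kb added on each side were collected from all 18 peak lists of the study. The livers came from C57BL/6 mice of 8 weeks. KO livers had the genotype CTCF fl/fl Albcre+, in which a Cre recombinase driven by the albumin promoter deletes the floxed *Ctcf* alleles in hepatocytes, and WT livers had the genotype CTCF fl/fl Albcre-, so that all animals carried the floxed alleles and the WT animals lacked Cre. The genotype label alone does not show whether the other cell types of a KO liver keep the gene. PPARg had 2 KO libraries (KO 7 and KO 8) and 2 WT libraries (WT 2 and WT 4), CTCF had KO160 and KO163 against WT164 and WT165, H3K27ac had KO 2, KO 3 and KO 4 against WT 1, WT 2 and WT 4, H3K4me3 had KO 4 against WT 2, and H3K27me3 had KO150 against WT156. The 4 CTCF libraries and PPARg KO 7, KO 8 and WT 2 were made by tagmentation from male mice on chow that had been fasted overnight. PPARg WT 4 and the histone mark libraries were made with a ligation kit, and neither sex nor fasting is stated for them. All libraries are bulk liver, in which a change in the share of a cell type and a change within hepatocytes cannot be told apart.

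In the fasted liver, gluconeogenesis builds glucose from lactate, amino acids and glycerol. Pyruvate carboxylase (*Pcx*) makes oxaloacetate in mitochondria, phosphoenolpyruvate carboxykinase (*Pck1*) turns it into phosphoenolpyruvate, fructose bisphosphatase (*Fbp1*) removes a phosphate further up the path, and the glucose phosphatase of the endoplasmic reticulum (*G6pc*), fed by the glucose phosphate transporter *Slc37a4*, frees glucose that leaves through the carrier *Slc2a2* (GLUT2). Glycogen is the short-term store: liver glycogen synthase (*Gys2*) builds it, liver glycogen phosphorylase (*Pygl*) breaks it down, and *Ppp1r3b* encodes a subunit that targets protein phosphatase 1 to glycogen and favours synthesis. *Foxo1* encodes a forkhead transcription factor that activates *Pck1* and *G6pc* and that insulin signalling keeps out of the nucleus. PPARg is a nuclear receptor that binds DNA together with RXR and drives fat storage genes. CTCF is a zinc-finger protein of insulators and domain boundaries. H3K27ac marks active promoters and enhancers, H3K4me3 active promoters, and H3K27me3 genes silenced by Polycomb.

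The peak lists differed in length between genotypes before any gene was considered, and each gene is therefore set against the whole list of its target. PPARg peaks covered 20.8 and 21.1 Mb in the KO libraries, against 9.0 and 6.90 Mb in the WT libraries, a KO over WT ratio of 2.64. The ratio was 0.756 for CTCF, 1.17 for H3K27ac, 0.879 for H3K4me3 and 1.56 for H3K27me3. The exact permutation test over libraries (two-sided) gave p = 0.3333 for PPARg and for CTCF, the smallest value that 2 against 2 allows, and p = 0.5 for H3K27ac. PPARg WT 4 differed from the other 3 PPARg libraries in kit and in its lowest −log10 q, which was 1.31 against at least 3.00 in the others. H3K27ac KO 4 covered 126 Mb, against 78.2 to 91.5 Mb in the other 5 H3K27ac libraries. CTCF peaks, the check of the deletion, numbered 18597 and 20323 in KO libraries and 27585 and 24566 in WT libraries. Read depth is unknown from peak lists. The labelled tissue fitted the marks: 8 of 8 hepatocyte markers had H3K27ac peaks in every library, with a mean of 46.3 to 52.5% of their windows covered in KO libraries and 48.4 to 54.5% in WT libraries. Of 7 neural stem cell markers, the cells that the growth text of the ligation libraries speaks of, 5 had no H3K27ac peak in any library, and the mean coverage was 2.57 to 7.56% in KO libraries and 4.26 to 5.30% in WT libraries. Stellate cell markers, of which 5 of 6 had a peak in every H3K27ac library, were covered to 9.99 to 19.3% in KO libraries and to 4.60 to 8.80% in WT libraries, and the part of this difference in the results was not tested.

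PPARg peaks covered more of the window in KO livers at all 10 genes. The increase was 1.86-fold at *G6pc*, 2.01-fold at *Ppp1r3b*, 2.13-fold at *Pck1*, 2.15-fold at *Slc2a2* and 2.32-fold at *Fbp1*, all below the ratio of the whole list, and 2.65-fold at *Gys2*, 2.98-fold at *Pcx*, 3.96-fold at *Foxo1*, 4.24-fold at *Pygl* and 24.0-fold at *Slc37a4*, above it. The median over the 10 genes was 2.49, against a median of 2.55 over 6972 genes with PPARg coverage in both genotypes. All 10 genes passed the test for the percent of the window covered, with adjusted p from 0.0144 (*Pcx*) to 0.0495 (*Pck1*) by limma with Benjamini-Hochberg adjustment over 10134 genes. Of those genes 34.2% passed in the same direction and 0.148% in the other, and 50.3% had an unadjusted p under 0.05. Among the 5962 genes with a mean of at least 500 bp covered, 54.9% passed the adjusted threshold with higher coverage in KO. Both KO values lay above both WT values at the 10 genes, as they did at 72.3% of the genes tested, while 1.02% had both KO below both WT values. These calls depended on single libraries and on list length. With lists of equal length 3 of the 10 genes were called. Over all 8426 genes tested in that setting, 1435 were called higher in KO and 23 lower. Fewer of the 10 were called without KO 7 and without KO 8, and their differences stayed above 0. Without WT 2, or without WT 4, no gene passed the test anywhere, although the 10 differences stayed above 0 in each case, and 2740 to 3128 genes had an unadjusted p under 0.05. Among the tagmentation libraries alone, KO 7 and KO 8 lay above WT 2 at all 10 genes, as at 74.5% of 9985 genes, and the whole-list ratio was 2.33.

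When each library was divided by its total covered length, no gene passed the test in either direction in any part of the genome, and 2401 genes (23.7%) had an unadjusted p under 0.05. On that scale the 10 genes split. *Slc37a4*, *Pygl*, *Foxo1* and *Pcx* were higher in both KO libraries than in both WT libraries, and *G6pc*, *Ppp1r3b*, *Pck1* and *Slc2a2* were lower in both, while *Fbp1* and *Gys2* overlapped. Over all genes tested, 32.1% were higher in both KO libraries and 20.5% lower on this scale. The scaled difference was −10.3 percentage points at *G6pc* (adjusted p = 0.0797, limma) and 3.85 percentage points at *Slc37a4* (adjusted p = 0.122, limma), the 2 of the 10 with an unadjusted p under 0.05.

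**Figure D1:**
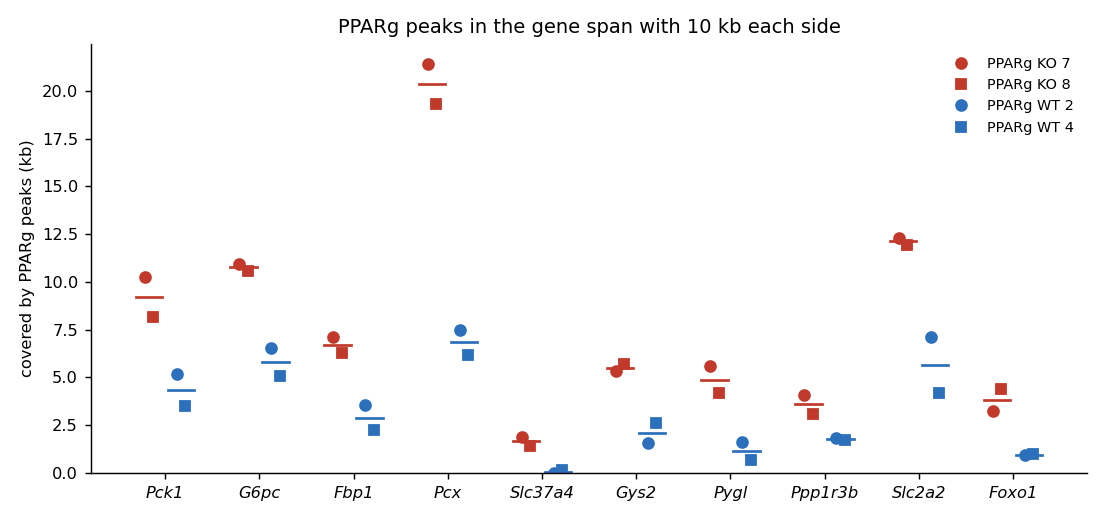
Kilobases covered by PPARg peaks in the span of each gene with 10 kb on each side (y axis) for the 2 KO libraries (red, left) and the 2 WT libraries (blue, right); horizontal lines are means. Both KO points lie above both WT points at all 10 genes, from 1904 and 1414 bp against 0 and 138 bp at Slc37a4 to 21380 and 19304 bp against 7501 and 6164 bp at Pcx.

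The promoters of 5 of these genes carried a PPARg peak in all 4 libraries. The RefSeq promoter table, 250 bases before to 50 bases after the start site on mm10 (GRCm38.p6), holds 11 promoters of 8 of the 10 genes. Those of *Pck1*, *G6pc*, *Fbp1*, *Slc2a2* and the second promoter of *Pcx* overlapped a PPARg peak in every library, 5 of 11, against 2.72% of all 32851 promoters in the table. None of the 11 had a peak in both KO and neither WT library, against 0.968% of all promoters. The 5 sequences are shown because each lies under a PPARg peak in every library. Capitals mark matches, on either strand, to the nuclear receptor hexamer AGGTCA and to the core of the cyclic AMP response element, TGACG. A match on the opposite strand is read as the reverse complement.
Pck1, chr2:173152823-173153122, plus strand: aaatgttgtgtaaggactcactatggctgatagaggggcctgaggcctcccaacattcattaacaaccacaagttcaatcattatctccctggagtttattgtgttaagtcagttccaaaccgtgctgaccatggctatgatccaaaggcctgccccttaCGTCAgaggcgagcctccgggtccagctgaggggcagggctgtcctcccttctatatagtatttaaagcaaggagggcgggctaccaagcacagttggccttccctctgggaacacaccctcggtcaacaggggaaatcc
G6pc, chr11:101367466-101367765, plus strand: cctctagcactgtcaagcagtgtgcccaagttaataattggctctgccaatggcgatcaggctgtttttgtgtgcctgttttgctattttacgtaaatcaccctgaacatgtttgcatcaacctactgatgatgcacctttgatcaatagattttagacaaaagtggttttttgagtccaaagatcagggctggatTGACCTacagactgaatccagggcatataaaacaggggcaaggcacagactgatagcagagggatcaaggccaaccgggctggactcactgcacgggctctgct
Fbp1, chr13:62888233-62888532, minus strand: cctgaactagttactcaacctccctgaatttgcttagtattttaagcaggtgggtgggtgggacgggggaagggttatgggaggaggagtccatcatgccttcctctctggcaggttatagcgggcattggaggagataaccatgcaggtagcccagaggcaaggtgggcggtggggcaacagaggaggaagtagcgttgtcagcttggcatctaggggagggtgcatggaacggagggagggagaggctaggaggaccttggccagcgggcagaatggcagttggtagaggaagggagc
Pcx, chr19:4594069-4594368, plus strand: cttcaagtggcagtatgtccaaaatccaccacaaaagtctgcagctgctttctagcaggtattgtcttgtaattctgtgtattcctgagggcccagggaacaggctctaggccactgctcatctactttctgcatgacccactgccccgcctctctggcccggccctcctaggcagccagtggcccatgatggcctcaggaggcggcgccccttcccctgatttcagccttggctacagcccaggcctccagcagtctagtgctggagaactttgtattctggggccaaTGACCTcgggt
Slc2a2, chr3:28697653-28697952, plus strand: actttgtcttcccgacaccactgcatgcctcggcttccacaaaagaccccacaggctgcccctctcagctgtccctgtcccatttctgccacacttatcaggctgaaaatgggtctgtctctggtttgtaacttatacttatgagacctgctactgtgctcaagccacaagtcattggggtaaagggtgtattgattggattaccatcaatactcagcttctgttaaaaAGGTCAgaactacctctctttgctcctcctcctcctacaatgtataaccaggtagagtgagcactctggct

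The hexamer began at −54 from the start site in *G6pc*, at 40 in *Pcx* and at −21 in *Slc2a2*, so 3 of the 5 promoters held it, in *G6pc* and *Pcx* on the opposite strand. The *Fbp1* promoter held neither motif. It was found in 16.3% of all promoters in the table, in 32.3% of the 893 that carried a PPARg peak in every library and in 15.8% of the others. The cyclic AMP core of *Pck1* began at −90, on the opposite strand, and this core was found in 20.8% of promoters. The longer motifs searched were direct repeat 1 (the hexamer repeated after 1 base, 0.0396% of promoters), the full cyclic AMP element TGACGTCA (1.79%), the forkhead motif GTAAACA (3.65%) and the C/EBP motif TTGCNNAA (10.8%), and none of them had a match in the 11 promoter windows. The CTCF core AGNNGGC, found in 59.8% of promoters, is not shown in capitals.

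*Pck1* was covered by PPARg peaks over 10268 and 8158 bp in KO 7 and KO 8, against 5164 and 3501 bp in WT 2 and WT 4. Its strongest region (chr2:173151164-173153512) spans the start site, and its fold enrichment over background as the authors' peak caller gave it was 50.8 and 39.4 in KO libraries against 42.0 and 27.7 in WT libraries, so KO 8 lay below WT 2. The summits, counted from the start site with negative positions before it, lay at −245 and −245 bp in KO and at −262 and −298 bp in WT. A pair of further regions, chr2:173149698-173150592 before the gene and chr2:173161033-173161501 behind it, was called in both KO libraries and neither WT library, with folds of 11.6 and 12.0 in the first and 5.01 and 4.49 in the second.

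*Pcx*, which supplies the oxaloacetate, had the largest covered length, 21380 and 19304 bp in KO libraries against 7501 and 6164 bp in WT libraries, in a window of 131281 bp that also holds *Lrfn4*, *Rce1* and *Gm960*. Its strongest region (chr19:4587852-4589618, inside the gene, with summits from −5735 to −5470 bp of the second start site) had folds of 55.2 and 32.5 in KO and 16.8 and 13.5 in WT, and over the second promoter the folds were 41.1 and 29.8 in KO and 13.3 and 13.5 in WT. At both places each KO value was above each WT value. The gene body held 5 of the 17 regions of this gene set that both KO libraries and neither WT library called. They are chr19:4521143-4522072, chr19:4567766-4568345, chr19:4577298-4578165, chr19:4578381-4579402 and chr19:4590185-4590724, with folds of 4.49 to 13.5.

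*Fbp1* was covered over 7135 and 6295 bp in KO libraries and 3535 and 2259 bp in WT libraries. The strongest region in its window (chr13:62858364-62860011) had folds of 37.1 and 38.2 in KO and 13.8 and 8.83 in WT, but lies in the neighbouring *Fbp2*, the gene of the muscle isoenzyme. At the *Fbp1* promoter itself the folds were 18.3 and 11.0 in KO against 14.2 and 8.77 in WT, which overlap. The regions chr13:62884988-62885439 and chr13:62886603-62887449 inside *Fbp1* were called in both KO libraries and neither WT library.

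Among the genes of glucose release, *G6pc* was covered over 10953 and 10572 bp in KO and 6517 and 5068 bp in WT. Its promoter region (chr11:101360637-101369177) had folds of 36.6 and 38.7 in KO and 20.7 and 22.4 in WT, with summits at −114 and −113 bp in KO and at −144 and −130 bp in WT. A second strong region lies at chr11:101378228-101380177, behind the gene, where the folds were 30.1 and 30.3 in KO and 31.9 and 23.5 in WT and so overlapped. The region chr11:101369845-101370545 inside the gene was called in both KO libraries and neither WT library.

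*Slc2a2*, the carrier, was covered over 12286 and 11938 bp in KO and 7111 and 4180 bp in WT. The region over its promoter (chr3:28695360-28700178) had folds of 49.5 and 42.2 in KO and 43.0 and 24.7 in WT, which overlap as at *Pck1*. Its summits lay at −113 bp in both KO libraries, at −12 bp in WT 2 and at 39 bp in WT 4. A region behind the gene, chr3:28736772-28737535, was called in both KO libraries and neither WT library.

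*Slc37a4*, the transporter that feeds *G6pc*, had little PPARg in WT livers. Peaks covered 1904 and 1414 bp in KO 7 and KO 8, against 0 bp in WT 2 and 138 bp in WT 4, so that its ratio rests on 1 short WT peak. Of 6 regions in its window, 4 were called in both KO libraries and neither WT library, and none was called in all 4. The regions chr9:44397593-44398186 and chr9:44401046-44401408 lie inside the gene, and chr9:44405096-44405664 and chr9:44406415-44406927 lie in the neighbouring *Trappc4*. Their folds were low, 4.28 to 7.01.

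In the glycogen genes, *Gys2* had the PPARg region with the highest fold of the 10 genes in both KO libraries. In both WT libraries the highest folds of *Slc2a2*, *Pck1*, *G6pc*, *Foxo1* and *Pcx* were above that of *Gys2*. At chr6:142470906-142474613, which overlaps one end of the gene span, the fold was 83.2 and 89.3 in KO against 16.5 and 11.2 in WT, a ratio of means of 6.24. Each KO value was thus more than 5 times each WT value, whereas the covered length of the window, 5338 and 5690 bp in KO and 1550 and 2609 bp in WT, rose by about the ratio of the whole list. Beside it, chr6:142474760-142475504 was called in both KO libraries and neither WT library.

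*Pygl*, the enzyme of glycogen breakdown, was covered over 5576 and 4169 bp in KO and 1603 and 696 bp in WT. Its region of highest fold in any library (chr12:70196098-70196892) had 17.0 and 8.98 in KO, 5.31 in WT 2 and no peak in WT 4. In KO 8, WT 2 and WT 4 the highest fold of the window lay at chr12:70233325-70234832. That region had 16.03 and 11.23 in KO and 14.35 and 11.18 in WT, which overlap. At *Ppp1r3b* peaks covered 4069 and 3096 bp in KO and 1816 and 1743 bp in WT, and the strongest region (chr8:35377308-35378813) had folds of 19.9 and 10.8 in KO and 6.42 and 6.86 in WT. A second *Ppp1r3b* region, chr8:35374650-35376589, had 11.5 and 10.7 in KO and 12.2 and 10.6 in WT and overlapped. Neither gene had a region called in both KO libraries and neither WT library.

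*Foxo1*, the transcription factor of the set, was covered over 3219 and 4386 bp in KO and 942 and 978 bp in WT, in a window of 101773 bp with no other protein-coding gene. Its strongest region lies in the gene body, with summits 22664 to 22734 bp behind the start site (chr3:52289725-52291630), and had folds of 38.6 and 30.3 in KO and 17.0 and 13.5 in WT. The region chr3:52270750-52272163 was called in both KO libraries and neither WT library.

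Together the 10 windows held 93 PPARg regions, merged over the libraries by an overlap of at least 1 bp. Of these 31 were called in all 4 libraries, 17 in both KO and neither WT library and none in both WT and neither KO library. Over all 33952 PPARg regions the shares were 29.8%, 17.9% and 1.05%, so 17 of 93 is near the share of the whole list. With the 4 lists reduced to equal length the count of 17 became 4 of 56, against 8.76% of all regions. Without KO 8 it became 46 of 92, against 40.9%, and without KO 7 it became 26 of 72, against 40.0%. Of the 93 regions, 81 overlapped an H3K27ac region of all 6 libraries, against 69.8% of all PPARg regions, and 28 overlapped an H3K4me3 region of both libraries, against 18.4%.

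The fold enrichment in the 31 shared regions was above both WT values in both KO libraries in 21, against 67.5% of 10131 shared regions. It was below both WT values in both KO libraries in none, against 4.75%. The ratio of the mean folds ran from 0.897 at chr2:173142770-173144873 near *Pck1* to 6.24 at *Gys2*, with a median of 1.73 against 1.59 over all shared regions. The windows thus differed among themselves. Those of *Gys2*, *Fbp1*, *Pcx*, *Ppp1r3b*, *Foxo1* and *Slc2a2* each held at least 1 shared region with a ratio above 2. In the *Fbp1* window that region (3.32) lies in *Fbp2*, and those in *Fbp1* itself had 1.79 and 1.27. In the *Slc2a2* window the ratio was 2.001. The promoter regions of *Pck1* and *Slc2a2*, which were strong in WT livers, had 1.30 and 1.35. Of the 9 genes with a peak in all 4 libraries, the highest fold in the window was above both WT values in both KO libraries at 5 (*Fbp1*, *Foxo1*, *G6pc*, *Gys2* and *Pcx*), against 77.4% of 5467 genes, and below them at none, against 2.38%.

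**Figure D2:**
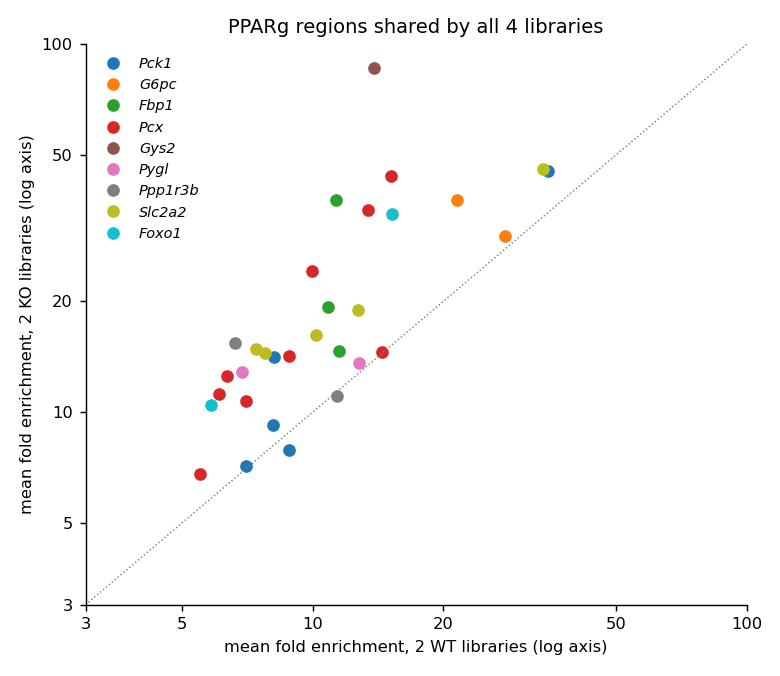
Mean fold enrichment of the 31 PPARg regions that all 4 libraries share in the windows of 9 genes, in the 2 KO libraries (y axis, log scale) against the 2 WT libraries (x axis, log scale), 1 point per region coloured by gene; the dotted line marks equality. The Gys2 region stands at 86.2 in KO and 13.8 in WT, and the promoter regions of Pck1 and Slc2a2 lie near the line at 45.1 and 45.8 in KO against 34.8 and 33.9 in WT.

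H3K27ac coverage of the 10 genes did not pass the test, and no gene of 15512 did (percent called 0.0 in either direction, 977 genes or 6.3% with an unadjusted p under 0.05, limma). The genes were broadly marked in both genotypes. Peaks covered 84.4 ± 3.2% of the *Pck1* window in KO and 84.4 ± 5.2% in WT, and 65.2 ± 2.8% of that of *Slc2a2* in KO and 63.6 ± 6.0% in WT (SD, n = 3 each). *G6pc* was covered to 53.1 ± 3.1% in KO and 53.4 ± 2.5% in WT, and *Fbp1* to 43.7 ± 3.8% in KO and 45.3 ± 3.3% in WT. *Slc37a4* stood at 42.7 ± 4.8% in KO and 44.2 ± 3.6% in WT, and *Pcx* at 36.9 ± 3.0% in KO and 35.8 ± 3.0% in WT. The glycogen genes and *Foxo1* were less covered. *Gys2* had 14.3 ± 3.7% in KO and 17.6 ± 3.0% in WT, *Pygl* had 17.3 ± 2.8% in KO and 19.5 ± 2.9% in WT, and *Foxo1* had 15.1 ± 6.7% in KO and 14.4 ± 2.0% in WT (SD, n = 3 each). In *Foxo1* the value of KO 4, 22.8%, was above the 10.8 and 11.6% of KO 2 and KO 3 and above all WT values.

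*Ppp1r3b* had the largest difference of the 10. Its H3K27ac peaks covered 6058, 6096 and 8001 bp in KO 2, KO 3 and KO 4, against 11215, 10912 and 7468 bp in WT 1, WT 2 and WT 4. The groups overlap through KO 4 and WT 4. The difference was −9.70 ± 3.69 percentage points (SE, adjusted p = 0.776 by limma).

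Set against the whole list, all 10 genes had a KO over WT ratio below 1.17, and 45.8% of 14642 genes were above that ratio. The ratio was below 1 at 7 of the 10 genes, against 23.5% of all genes, and ran from 0.681 at *Ppp1r3b* to 1.05 at *Foxo1*. The median was 0.981 against 1.14 over all genes. None of the 10 had KO values all above or all below the WT values, against 10.7% and 1.41% of genes. After division by the total covered length, all 10 differences were below 0, with a median of −6.44 percentage points against −0.0363 over all genes tested. *Fbp1*, *Gys2*, *Pygl* and *Ppp1r3b* then had all KO below all WT values, 4 of 10 against 8.87% of genes, while 7.72% of genes had all KO above all WT values. The unadjusted p of the scaled difference was 0.0182 at *Gys2*, 0.0384 at *Pygl* and 0.00491 at *Ppp1r3b*, and no gene passed after adjustment (adjusted p 0.338, 0.409 and 0.25, limma, with 1770 genes at an unadjusted p under 0.05). The total of KO 4 enters this scaling. A window that is already widely covered also has little room to follow a longer list. At *Pck1*, covered to 84.4% in both genotypes, the difference was −0.0674 percentage points unscaled and −10.6 scaled. The part of this in the scaled differences was not tested. Without KO 4 the unscaled difference was below 0 at 9 of the 10 genes, and the median difference over all genes tested was 0.0119 percentage points, against 0.866 with it.

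**Figure D3:**
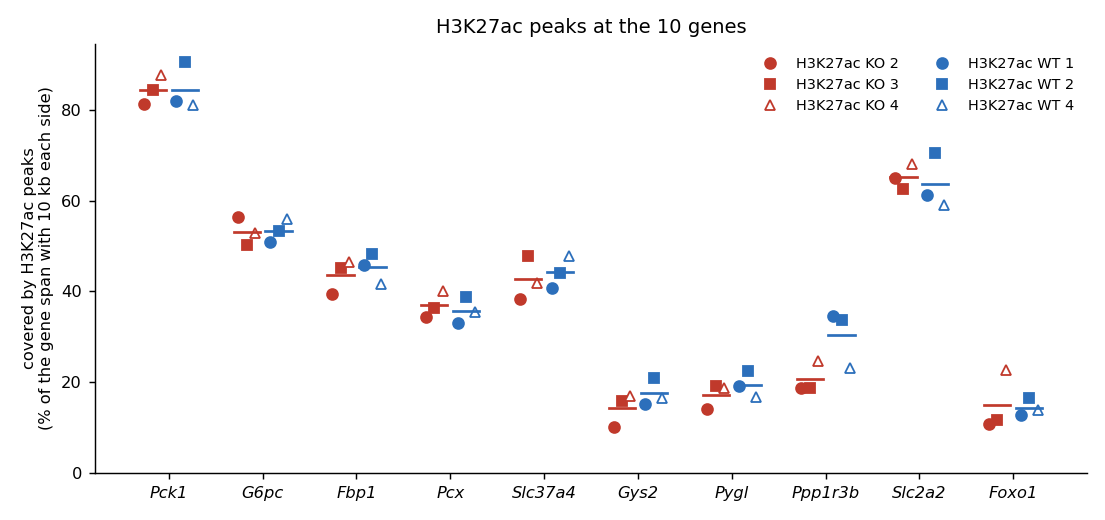
Percent of the span of each gene with 10 kb on each side that H3K27ac peaks cover (y axis), for KO 2, KO 3 and KO 4 (red, left) and WT 1, WT 2 and WT 4 (blue, right); horizontal lines are means. The points of the genotypes overlap at every gene, and at Ppp1r3b the means are 20.7% in KO and 30.4% in WT.

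The 10 windows held 55 H3K27ac regions, of which 29 were called in all 6 libraries, against 39.6% of 57360 regions. None was called in all KO and no WT or in all WT and no KO library (1.08% and 0.173% of all regions). All 11 promoters lay under an H3K27ac peak in every library, against 33.3% of promoters in the table. The strongest regions spanned the start sites of *Pck1*, *G6pc*, *Fbp1*, *Slc2a2*, *Pygl*, *Foxo1* and *Slc37a4*. The region of *Slc2a2* (chr3:28694867-28727670) was 32804 bp wide, and its fold was 6.56, 6.62 and 5.41 in KO against 7.91, 7.32 and 8.25 in WT. *Slc2a2* was the only gene of the 10 whose highest fold in every KO library lay below every WT library, against 12.0% of 13252 genes. At *Gys2*, where the PPARg fold in KO libraries was highest, the region chr6:142466005-142474402 had H3K27ac folds of 6.26, 5.87 and 5.41 in KO and 6.03, 6.96 and 7.30 in WT, which overlap. The highest region of the *Pcx* window lies at its edge, in the neighbouring *2010003K11Rik*.

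H3K4me3 covered less of all 10 windows in the KO library than in the WT library. With 1 library per genotype there is no replicate check and no test, and 71.9% of 13046 genes were lower in KO. Coverage was lowest relative to WT at *Slc2a2*, 2245 bp in KO and 3867 bp in WT, a ratio of 0.581, and at *G6pc*, 2589 bp in KO and 3991 bp in WT, a ratio of 0.649. These were the 2 genes past 1.5-fold, which 9.77% of genes passed in this direction and 6.15% in the other. With the stricter −log10 q, 4 of the 10 genes were past it. The 9.77% belongs to the main setting, so this count has no share of all genes beside it. *Pck1* had 3390 bp in KO and 5071 bp in WT, *Gys2* 2058 bp in KO and 3055 bp in WT, and *Fbp1* 4057 bp in KO and 5459 bp in WT. *Ppp1r3b* had 3073 bp in KO and 4062 bp in WT, and *Foxo1* 3888 bp in KO and 4697 bp in WT. The smallest differences were those of *Pygl* (1887 bp in KO, 2140 bp in WT), *Slc37a4* (6181 bp in KO, 6684 bp in WT) and *Pcx* (4410 bp in KO, 4601 bp in WT). The median ratio was 0.75, against 0.892 over all genes and 0.879 for the whole list. Relative to the whole list 3 genes were higher (*Pcx*, *Slc37a4* and *Pygl*, the last by a ratio of 1.003) and 7 lower, and *Slc2a2* alone was past 1.5-fold. On that scale 4.84% of genes were past 1.5-fold lower and 8.55% higher.

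At several start sites the KO peaks were shorter or broken. At *Pck1* the KO library had a peak from 90 to 2753 bp behind the start site and another from 3104 to 3829 bp, whereas the WT peak ran without a gap from 26 to 5096 bp. At *G6pc* the KO peaks ran from 71 to 2319 bp and from 2592 to 2931 bp and the WT peak from −259 to 3479 bp, so that the start site lay inside the WT peak alone. At *Slc2a2* the KO peak ran from −231 to 2013 bp and the WT peak from −262 to 2302 bp, with WT peaks on both sides of it that the KO library lacked. At *Foxo1* the KO peak ran from −1066 to 2821 bp and the WT peak from −1140 to 3022 bp. The second start site of *Pcx* went the other way, with a KO peak of 1174 bp and fold 9.90 and a WT peak of 865 bp and fold 3.63. The peak over *Rce1* in the *Pcx* window was 1671 bp wide in KO and 1620 bp in WT. Peaks of the whole list were also narrower in KO, with a median of 995 bp against 1214 bp in WT. The highest fold was lower in KO at 8 of the 10 genes, against 67.7% of genes, for example 12.3 in KO and 15.5 in WT at *G6pc*, and higher at *Foxo1* (17.9 in KO, 14.3 in WT) and *Pygl* (10.4 in KO, 8.90 in WT).

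**Figure D4:**
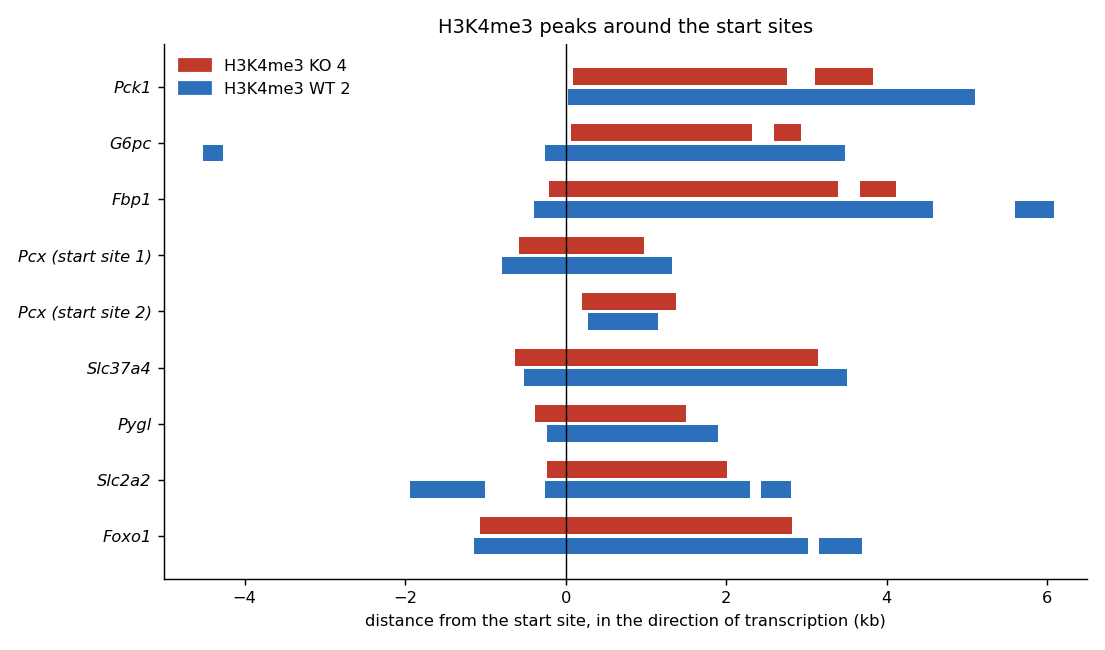
H3K4me3 peaks of KO 4 (red, above) and WT 2 (blue, below) at the start sites of 8 genes, drawn by their distance from the start site in the direction of transcription (x axis, kb; peaks within 8 kb). The KO peaks of Pck1, G6pc and Fbp1 are broken and end at 3829, 2931 and 4116 bp, and the main WT peaks at 5096, 3479 and 4577 bp.

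Of 19 H3K4me3 regions in the 10 windows 13 were shared, 6 were called in WT alone and none in KO alone, against 69.8%, 15.7% and 14.5% of 17997 regions. The 6 lie at *Fbp1* (chr13:62882196-62882684), *Foxo1* (chr3:52271497-52272030), *G6pc* (chr11:101363193-101363444), *Gys2* (chr6:142470236-142470433) and *Slc2a2* (chr3:28695965-28696895 and chr3:28700338-28700708), with folds of 3.17 to 5.32. The highest regions in the windows of *Pcx* and *Slc37a4* lie over neighbours, *Rce1* with *Gm960* and *Trappc4* with *Rps25*.

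CTCF peaks lay in the windows of 8 of the 10 genes. Of all 21887 protein-coding genes, 13306 had CTCF coverage that varied between the libraries. *G6pc* and *Slc37a4* had no CTCF peak in their windows in any library, and no CTCF peak lay over any of the 11 promoters, as at 93.8% of promoters in the table. At the other 8 genes coverage was lower in KO than in WT on average, with ratios from 0.241 at *Gys2* to 0.993 at *Fbp1* and a median of 0.641, against 0.794 over all genes and 0.756 for the whole list. No gene of 13306 passed the test (percent called 0.0 in either direction, 1361 genes or 10.2% with an unadjusted p under 0.05, limma), and the adjusted p of the 8 ran from 0.529 to 0.982. Both KO values lay below both WT values at *Pck1*, *Gys2* and *Slc2a2*, 3 of 8 against 37.3% of genes, and above them at none, against 3.83%. Scaled by total covered length none of the 8 was apart in either direction, and 21.2% of genes were lower and 22.5% higher.

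At *Gys2* CTCF peaks covered 315 and 0 bp in KO160 and KO163, against 481 and 828 bp in WT164 and WT165. At *Pck1* they covered 533 and 212 bp in KO against 702 and 622 bp in WT, and at *Slc2a2* 496 and 721 bp in KO against 931 and 973 bp in WT. Of 17 CTCF regions in the windows, 7 were called in all 4 libraries, 3 in both WT and neither KO library, and none in both KO and neither WT, against 53.1%, 9.87% and 0.167% of 30026 regions. The 3 that KO livers lacked were chr6:142477394-142477609 outside *Gys2* (folds 0 and 0 in KO, 5.41 and 6.14 in WT), chr2:173164352-173164844 behind *Pck1* (0 and 0 in KO, 7.56 and 6.86 in WT) and chr19:4540331-4540728 inside *Pcx* (0 and 0 in KO, 6.49 and 7.82 in WT). With lists of equal length 1 of 11 regions was of this class, against 2.84% of all CTCF regions.

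The strongest CTCF regions of the set were called in KO livers as well. The region before *Foxo1* (chr3:52262234-52262988) had folds of 15.8 and 21.1 in KO and 15.7 and 16.1 in WT. The region before *Pygl* (chr12:70234276-70236310) had 10.2 and 13.3 in KO and 16.2 and 15.6 in WT, each KO value below each WT value. The region in *Slc2a2* (chr3:28709659-28710631) had 10.2 and 14.7 in KO and 15.0 and 13.4 in WT, the one behind *Pcx* (chr19:4628339-4629523, in *Gm960*) 13.8 and 12.7 in KO and 18.9 and 12.9 in WT, and the one in the *Fbp1* window (chr13:62854121-62855617, in *Fbp2*) 13.5 and 13.8 in KO and 19.8 and 9.10 in WT. These overlap between genotypes. Weaker regions lay at the end of *Pck1* (chr2:173159205-173159737), with 9.34 and 5.05 in KO and 8.55 and 6.36 in WT, in *Gys2* (chr6:142465917-142466349), with 5.06 and 0 in KO and 5.74 and 7.72 in WT, and in *Ppp1r3b* (chr8:35376357-35376682), with 0 and 7.34 in KO and 7.29 and 10.7 in WT.

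H3K27me3 was found at 1 of the 10 windows. In that of *Gys2* peaks covered 971 bp in the KO library and 370 bp in the WT library, outside the gene itself. The KO peak (chr6:142412012-142413582, fold 3.66) lies over the neighbours *Golt1b* and *Spx* and the WT peak (chr6:142415176-142415545, fold 3.33) over *Spx*. The ratio of 2.62 is past 1.5-fold, as were 58.2% of 2884 genes (26.8% were lower in KO), and rests on 1 peak in each library with no replicate. The KO peak is 1571 bp wide and the edge of the window cuts it. With 5 kb windows, and with the stricter −log10 q, none of the 10 genes differed in H3K27me3 coverage.

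**Figure D5:**
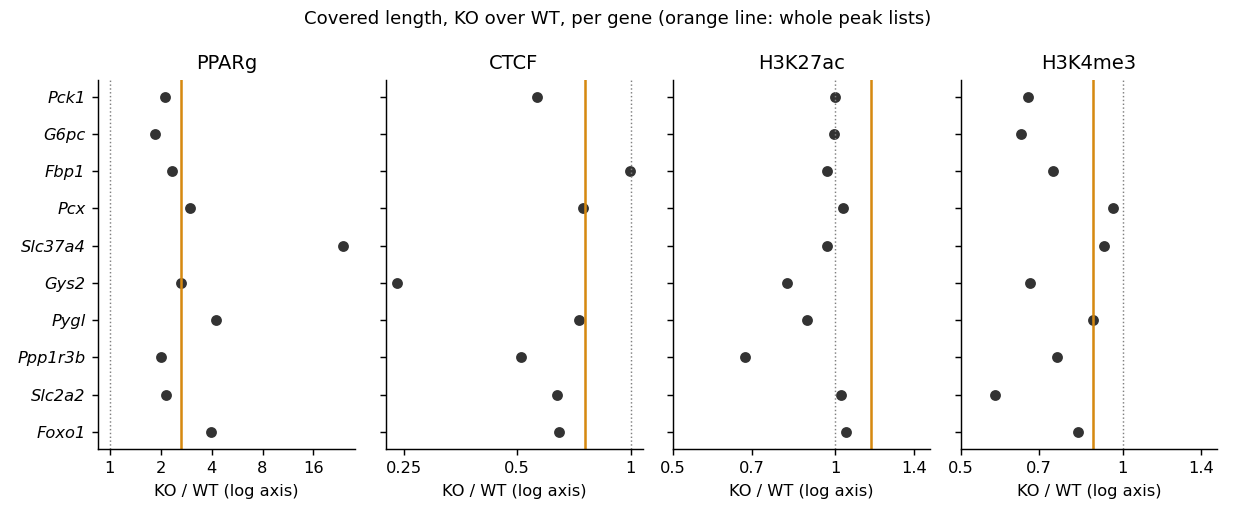
Ratio of mean covered length, KO over WT (x axes, log scale), for each gene in the 4 targets with peaks at 8 or more of the 10 genes; the orange line is the ratio of the whole peak lists and the dotted line marks 1. PPARg ratios lie on both sides of the line at 2.64, all 10 H3K27ac ratios lie below the line at 1.17, and 7 of 8 CTCF and 7 of 10 H3K4me3 ratios lie below theirs, at 0.756 and 0.879.

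PPARg coverage was also higher in KO livers at many other genes of glucose and glycogen metabolism, of which 67 were listed in 5 groups. Of the 57 with PPARg coverage, 33 rose and none fell, where rose and fell mean an adjusted p under 0.05 (limma). Both KO values lay above both WT values at 54 of the 57, against 72.3% of all genes tested, and below them at 1, against 1.02%. Over all genes tested 34.2% rose, and 54.9% of those with a mean of at least 500 bp covered. *Foxa2*, a pioneer factor of the liver, was the 1 gene with both KO below both WT values, 519 and 190 bp in KO against 2307 and 541 bp in WT (adjusted p = 0.323, limma). Among shared enzymes of gluconeogenesis and glycolysis 9 of 13 with PPARg coverage rose (among them *Pck2*, *G6pc3*, *Tpi1*, *Gapdh*, *Pgam1*, *Eno1*, *Mdh1* and *Mdh2*). Among glycogen enzymes and scaffolds 8 of 14 with coverage rose, of 21 listed (among them *Gbe1*, *Ugp2*, *Pgm1*, *Gsk3b*, *Ppp1r3c*, *Ppp1r3g* and *Stbd1*). *Gbe1*, the branching enzyme, had 5539 and 6004 bp in KO and 1126 and 1913 bp in WT. Among genes of glucose use 4 of 7 with coverage rose, of 8 listed (among them *Pfkfb1*, *Slc2a1* and *Mlxipl*), and among hormone receptors, kinases and regulators 7 of 15, of 16 listed (*Gcgr*, *Crtc2*, *Creb3l3*, *Foxo3*, *Hnf4a*, *Cebpb* and *Klf15*). *Hnf4a*, a master regulator of hepatocytes, had 13255 and 11456 bp in KO and 4297 and 4766 bp in WT. Among genes of substrate supply 5 of 8 with coverage rose, of 9 listed (*Tat*, *Sds*, *Gpt*, *Gk* and *Aqp9*). *Tat*, which breaks down tyrosine, had the largest difference of all 67, 14749 and 12801 bp in KO against 3821 and 3726 bp in WT, or 29.7 ± 2.29 percentage points (SE, adjusted p = 0.0148, limma). As at the 10 genes, none of these calls was made after scaling or without WT 2 or WT 4.

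In H3K27ac none of the 67 passed the test. The KO values lay all above the WT values at 7 and all below at 2, against 10.7% and 1.41% of all genes. *Sik1*, a kinase that restrains the gluconeogenic response to glucagon, had 11994, 16743 and 15431 bp in KO and 9586, 11091 and 9446 bp in WT (adjusted p = 0.762, limma), and *Mdh2*, the mitochondrial malate dehydrogenase, had 8684, 8491 and 9353 bp in KO and 2845, 6970 and 7952 bp in WT (adjusted p = 0.776). *Ppp1r3c*, another glycogen-targeting subunit, had 6872, 6116 and 6564 bp in KO and 7333, 8015 and 7299 bp in WT (adjusted p = 0.762).

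In CTCF none of the 67 passed the test, with KO values all above WT values at 4 and all below at 16 of 51 genes, against 3.83% and 37.3% of all genes. *Pygm*, the muscle phosphorylase, had 643 and 940 bp in KO and 2102 and 1183 bp in WT. *Fbp2* had 2300 and 1899 bp in KO and 1862 and 1837 bp in WT, and *Gckr* 565 and 800 bp in KO and 363 and 421 bp in WT. The adjusted p of these 3 ran from 0.560 to 0.698 (limma).

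In H3K4me3 12 of 66 genes were past 1.5-fold lower in KO and 1 past it higher, against 9.77% and 6.15% of all genes (4.84% and 8.55% after scaling by total covered length). Of the 12, 6 were among the 9 genes of substrate supply. *Sds*, which turns serine into pyruvate, had 299 bp in KO and 1302 bp in WT, *Gk*, the glycerol kinase, 1473 bp in KO and 2885 bp in WT, and *Tat* 2671 bp in KO and 4890 bp in WT. *Ppp1r3c* had 1316 bp in KO and 3997 bp in WT. *Ppp1r3d* had 1438 bp in KO and was listed at 0 in WT. In H3K27me3 *Ppargc1a*, a coactivator of gluconeogenic genes, was the 1 gene with enough coverage, 1965 bp in KO and 633 bp in WT.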

How the data were processed

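ChIP-seq peak lists of 18 mouse liver libraries were analysed. The submitters' processing notes list MACS2 (2.1.2) beside BWA (0.7.12), deepTools (3.1.3) and Picard (1.77), and build mm10. The control and read depth are not given in the sources used here. Each deposited peak carries the authors' fold over background (a ratio), a −log10 p, a −log10 q and a score, of which the fold and the −log10 q were used. The deposited offset gave each summit.

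Lines off the autosomes, X and Y (at most 0.209%) were dropped and repeated H3K4me3 intervals collapsed. The measure was the percent of a gene span with 10 kb each side that peaks cover, fitted without scaling with limma 3.58.1 (R 4.3.3, Python 3.11.15, Benjamini-Hochberg over all varying genes, threshold 0.05), which was tested on simulated data. H3K4me3 and H3K27me3 have 1 library per genotype and were described by 1.5-fold among genes with at least 500 bp covered. Alternatives were scaling by total covered length, lists of equal length, a stricter −log10 q, 5 kb windows, log2 of covered bp plus 200, a filter on low values, a replicate block and leaving out each library. Labels do not say that libraries are separate animals, so p-values measure the spread between libraries, which may be technical. No 2 libraries of a group shared more than 5 identical peaks. Members and lists were chosen with earlier results of these data known. Named were all members, pathway genes past a test, otherwise the largest 2 rises and 2 falls without overlap (up to 4 past 1.5-fold), and at each member the region of highest fold and any region of 1 genotype. Shared PPARg regions with overlapping folds were named after their values were seen. A few of the genes this rule names are not reported here. Promoter sequences are from RefSeq.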

Additional observations from a re-analysis of the deposited data

How the results depend on the processing

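PPARg genes called, 3483 in all, numbered 1458 with lists of equal length, 1865 with a stricter −log10 q, 0 after division by total covered length and 0 to 3585 when 1 library was left out. Of the 10 genes 3 were called with equal lengths, against 1435 of 8426 genes called higher in KO. The stricter q left 6, against 1861 of 6619 genes, and the division by total covered length 0. Fewer were called when 1 library was left out. With 5 kb windows 7 were called, against 2572 of 9023 genes, and on the log2 scale 6, against 4678 of 10134. The 7426 PPARg genes without overlap between genotypes became 4842 with the stricter q. H3K27ac calls, 0 in the main setting, became 1 with the stricter q and 13 on the log2 scale, and its 1879 genes without overlap became 498 with the stricter q and 2539 to 5285 when 1 library was left out. CTCF had no call in any setting, and its 5476 genes without overlap became 8000 to 10613 when 1 library was left out. The 2180 H3K27me3 genes past 1.5-fold became 109 with the stricter q. In alternatives chosen after seeing the data, lists of equal length left 4 KO-only and 1 WT-only of 56 PPARg regions in the 10 windows. Over all PPARg regions the shares were 8.76% and 4.88%. Of 11 CTCF regions 1 was WT-only, against 2.84%. Leaving out 1 library gave 21 to 46 KO-only PPARg regions of 72 to 95, against 23.5 to 40.9% of all PPARg regions. WT-only PPARg regions numbered 0 to 5, against 1.88 to 4.29%. WT-only CTCF regions numbered 4 to 6 of 14 to 17, against 13.2 to 24.9%. Of 51 to 55 H3K27ac regions 0 to 2 were KO-only, against 1.34 to 4.15%, and 0 to 1 WT-only, against 0.211 to 1.04%.

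Signs reversed after division by total covered length for PPARg at *Pck1* (−5.53 percentage points), *G6pc* (−10.3), *Fbp1* (−1.31), *Gys2* (−0.245), *Ppp1r3b* (−2.49) and *Slc2a2* (−3.43), for CTCF at *Fbp1* (0.938) and *Pcx* (0.00282) and for H3K27ac at *Pcx* (−3.61), *Slc2a2* (−6.21) and *Foxo1* (−1.95). Other reversals were CTCF at *Pck1* with 5 kb windows (0.512) and at *Pcx* with equal lengths (0.0967) and the stricter q (0.197), and H3K27ac at *Foxo1* with equal lengths (−0.297) and on the log2 scale (−0.00901) and with the stricter q at *Pck1* (0.682), *Pcx* (−2.51) and *Slc37a4* (0.0756). When 1 library was left out the difference ranged from −0.295 to 0.242 for CTCF at *Fbp1* and from −0.9 to 0.0185 at *Ppp1r3b*. For H3K27ac it ranged from −1.78 to 2.95 at *Pck1*, −1.82 to 1.28 at *G6pc*, −3.36 to 0.603 at *Fbp1*, −0.456 to 2.69 at *Pcx*, −4.10 to 0.624 at *Slc37a4*, −0.673 to 5.01 at *Slc2a2* and −3.16 to 2.82 at *Foxo1*. The cause was not tested. With 1 library left in a genotype, that library is assumed to vary like the others.

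With the replicate block in H3K27ac (numbers 2 and 4), 0 genes were called, 194 had an unadjusted p under 0.05 and the difference at *G6pc* was 0.0547. The deviations of same-numbered libraries from their genotype means had correlations of −0.235 and −0.201. Pairs with different numbers ran from −0.078 to 0.251. With 3 libraries per genotype these deviations are tied to each other, so the check cannot decide whether the libraries were paired. Peak lists carry no read depth, so the size of a difference that could have been seen is unknown.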
